A study of Mus musculus with 4 samples.

Results

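The genes described here are the nuclear genes for the subunits of the oxidative phosphorylation (OXPHOS) complexes in mouse embryonic stem cells, 87 of the 55401 genes in the count table. They were selected by symbol among GENCODE M21 protein-coding genes outside the mitochondrial chromosome. The rule took symbols that start with Ndufa, Ndufb, Ndufc, Ndufs, Ndufv, Uqcr, Cox4i, Cox5, Cox6, Cox7, Cox8 or Atp5, together with Sdha, Sdhb, Sdhc, Sdhd and Cyc1, and dropped the Ndufaf assembly factors. No measured value entered the rule, but the list was chosen with earlier results of these data known. The rule found 36 genes for complex I, 4 for complex II, 9 for complex III, 20 for complex IV and 18 for complex V. Ndufa4 was counted with complex IV, of which its product is a subunit, and its paralog Ndufa4l2 was placed beside it. The other genes were assigned by symbol alone, without a check that each product is a structural subunit.

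The R1 line of mouse embryonic stem cells was profiled by poly(A) RNA sequencing in 2 groups with 2 libraries each, a control group (CTL) with a wild-type genotype and a group with the genotype Usp28 KO. Usp28 encodes a deubiquitinase, and the comparison asks how expression differs in cells labelled as lacking it. Both groups grew on 0.2% gelatin in N2B27 medium that contained 10 ng/ml LIF, a cytokine that sustains self-renewal, and inhibitors of MEK (1 µM PD0325901) and GSK3 (3 µM CHIR99021). Libraries were made by the TruSeq poly(A) protocol from 1 µg of RNA, with a RIN of 6.5 or more. The labels do not say how the knockout was made, how many clones it represents, or whether the libraries of a group come from separate cultures, so the p-values reflect spread among libraries that may be technical only.

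The libraries held 16595196 to 19533608 counts, and 15341 genes passed the filter on low counts. The summed level of 8 embryonic stem cell markers was 5011 to 5337 counts per 1000000 (CPM, scaled by TMM) over the 4 libraries. Of 7 fibroblast markers, Dcn, Lum and Postn had no count in any library, and the list summed to 0.563 to 1.07 CPM. The Usp28 gene itself had 3690 and 3120 counts in CTL, against 3392 and 3319 in the group labelled Usp28 KO, a log2 fold change of -0.11 ± 0.15 (SE) with an edgeR adjusted p of 0.857. This count over the whole gene does not verify the genotype, so Usp28 KO below means the libraries labelled so.

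Oxidative phosphorylation passes electrons from NADH through complex I, or from succinate through complex II, to ubiquinone, then through complex III and cytochrome c to complex IV, which reduces oxygen. Complexes I, III and IV pump protons across the inner mitochondrial membrane, and complex V (ATP synthase) uses that gradient to make ATP. All complexes but II combine nuclear-encoded subunits with subunits encoded in mitochondrial DNA, and naive embryonic stem cells are known to use respiration alongside glycolysis.

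Of the 87 genes, 82 passed the filter on low counts and were tested. The 5 that did not pass were Cox6a2, Cox8b, Cox8c and Cox7b2, which are isoforms known from muscle, testis or other differentiated tissues, and an additional Atp5o gene model whose exon bases all lie in other annotated genes. Cox6a2 had 1 count in the second CTL library and none elsewhere, and Cox8b had 1 count in the first Usp28 KO library and none elsewhere. Cox8c had 1, 1, 1 and 4 counts and Cox7b2 had 2, 0, 4 and 2 counts, in the order CTL replicates 1 and 2, then Usp28 KO replicates 1 and 2, which is the order of every set of 4 values below. The additional Atp5o model had 0 counts in all libraries, against a floor of 3 counts that corresponds to 0.154 to 0.189 CPM. No fold change is given for these 5 genes.

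Levels were compared between genes per length, as CPM per kilobase of annotated exon (RPKM, mean of 4 libraries). The median level of the tested subunit genes was 43.7 RPKM, against 4.97 RPKM over all genes tested. Complex IV had the highest median level, 70.4 RPKM, followed by complex III at 61.6, complex II at 58.8, complex V at 38.2 and complex I at 30.7 RPKM. The differences between these medians were not tested. Each complex spans a wide range, and the length is that of all annotated exons together, which lowers the level of a gene with long rarely used exons.

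The highest levels belonged to the catalytic head of ATP synthase. Atp5b, the beta subunit that carries the catalytic site, stood at 423 RPKM, and Atp5a1, the alpha subunit, at 409 RPKM. Next came 3 complex IV genes, Cox6a1 at 276, Cox8a at 246 and Cox4i1 at 200 RPKM, and then Atp5c1, the gamma subunit of the central stalk, at 128 RPKM. In complex III the highest level was that of Uqcr10 at 123 RPKM, and in complex II that of Sdhd, a membrane anchor, at 86.2 RPKM. The lowest tested level was that of Ndufb2, 0.430 RPKM from 32 to 57 counts over an annotated exon length of 5628 bases. Cox4i2, the oxygen-responsive isoform of Cox4i1, stood at 1.17 RPKM.

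**Figure D1:**
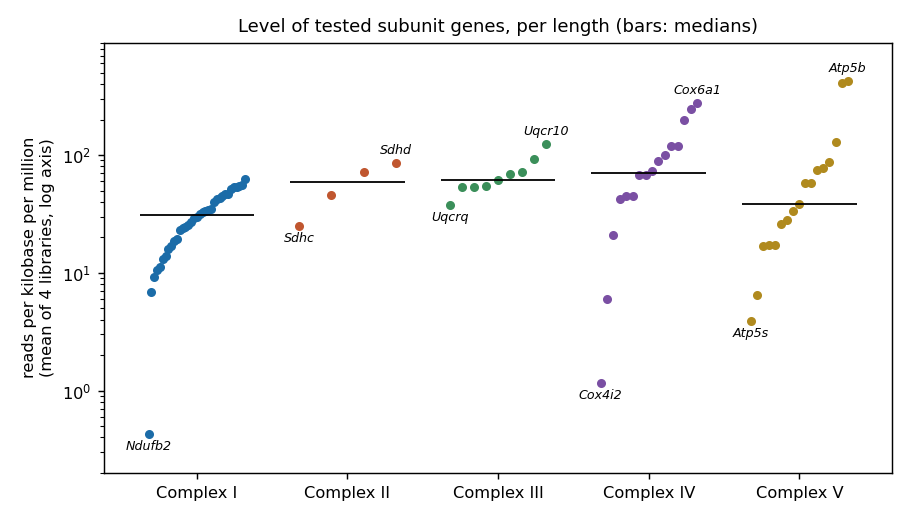
Mean level of the tested subunit genes over 4 libraries, 1 gene left out, in RPKM on a log axis, by complex. Points are genes sorted by level, bars are medians (30.7 for complex I to 70.4 for complex IV), and the named genes are extremes of their complex.

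Promoter windows of the members are shown for 1 gene of each complex, because binding sites of the factors NRF1 and GABP are a known shared feature of OXPHOS promoters. RefSeq windows (GRCm38.p6) reach from 250 bases before to 50 bases after a gene's start, and 69 of the 86 member symbols had a window. The 5 windows printed were picked from the genes that hold an NRF1 match and at least 1 other, and are given to 30 bases after the start. They lie at chr4:40279392-40279671 on the minus strand for Ndufb6 (complex I), chr4:140961021-140961300 on the plus strand for Sdhb (complex II), chr10:80406792-80407071 on the minus strand for Uqcr11 (complex III), chr5:115348929-115349208 on the minus strand for Cox6a1 (complex IV) and chr5:108434370-108434649 on the minus strand for Atp5k (complex V). Sequences run 5′ to 3′ along the gene, and capitals mark matches on either strand to GCGCATG (the core of the NRF1 site), CCGGAAG (the ETS site that GABP binds) or AAGGTCA (a nuclear receptor site that ERR binds).
Ndufb6: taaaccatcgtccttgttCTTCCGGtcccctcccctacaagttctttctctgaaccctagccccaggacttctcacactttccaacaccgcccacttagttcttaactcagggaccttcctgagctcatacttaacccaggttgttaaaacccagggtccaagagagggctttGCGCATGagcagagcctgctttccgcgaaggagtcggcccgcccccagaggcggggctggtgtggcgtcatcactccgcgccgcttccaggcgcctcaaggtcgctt
Sdhb: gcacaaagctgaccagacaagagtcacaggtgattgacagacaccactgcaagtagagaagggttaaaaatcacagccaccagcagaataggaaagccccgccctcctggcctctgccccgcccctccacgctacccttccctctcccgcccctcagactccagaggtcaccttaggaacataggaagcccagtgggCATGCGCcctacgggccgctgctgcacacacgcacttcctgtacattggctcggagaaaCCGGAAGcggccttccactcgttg
Uqcr11: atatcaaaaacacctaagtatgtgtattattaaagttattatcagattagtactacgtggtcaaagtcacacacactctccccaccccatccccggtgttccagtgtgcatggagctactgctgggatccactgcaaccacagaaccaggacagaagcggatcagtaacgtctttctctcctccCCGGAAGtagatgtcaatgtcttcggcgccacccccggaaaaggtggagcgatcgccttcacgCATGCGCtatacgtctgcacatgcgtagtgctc
Cox6a1: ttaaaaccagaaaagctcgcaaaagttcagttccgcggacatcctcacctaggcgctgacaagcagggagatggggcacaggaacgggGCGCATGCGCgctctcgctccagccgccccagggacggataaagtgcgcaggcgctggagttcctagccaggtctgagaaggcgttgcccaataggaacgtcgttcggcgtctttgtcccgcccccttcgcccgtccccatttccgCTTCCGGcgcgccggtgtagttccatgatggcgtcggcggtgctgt
Atp5k: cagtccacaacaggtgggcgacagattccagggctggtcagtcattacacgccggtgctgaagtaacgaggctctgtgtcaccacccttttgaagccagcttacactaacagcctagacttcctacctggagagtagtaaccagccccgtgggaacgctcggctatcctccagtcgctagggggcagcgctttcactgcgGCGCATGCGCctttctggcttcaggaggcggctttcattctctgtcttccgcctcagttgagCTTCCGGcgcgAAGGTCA

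In Cox6a1 and Atp5k the NRF1 core occurs on both strands at once, which gives the palindrome GCGCATGCGC, and both also hold an ETS match near the start. The NRF1 core was found in 13 of 74 windows of the members (17.6%), against 3.91% of all 32851 windows and 6.79% of the windows of tested genes. The ETS match was in 16 windows (21.6%), against 8.86% of all windows and 17% of those of tested genes. AAGATGG, the core of the YY1 site, was in 11 windows (14.9%, against 6.34% of all windows and 6.84% of those of tested genes). AAGGTCA was in 8 windows (10.8%, against 4.72% and 3.3%). By complex, the NRF1 core was in 5 of 32 genes of complex I, 1 of 3 of complex II, 2 of 5 of complex III, 2 of 14 of complex IV and 3 of 15 of complex V. Of the 69 genes with a window, 36 held at least 1 of the 4 motifs. The median GC content of the member windows was 57.5%, against 52.7% over all windows. A match describes the letters of a window and is not evidence of binding.

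Between the groups, no subunit gene passed the test, and most genes had a small positive log2 fold change. Log2 fold changes are given throughout as Usp28 KO minus CTL. They were above 0 for 65 of the 82 tested genes (79.3%), against 49.4% of all genes tested, and below 0 for 17, against 50.6%. The median was 0.16, against -0.0040 over all genes. In these bulk libraries a lower level of an RNA can come from fewer cells that contain it or from less of it per cell, which cannot be told apart.

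With edgeR's quasi-likelihood test and Benjamini-Hochberg adjustment over all genes, 0 members passed an adjusted p of 0.05 in either direction, as for all genes (0.0% higher and 0.0% lower). At an unadjusted edgeR p below 0.05, 1 member (Ndufa7) was higher, against 6.86% of all genes, and 0 were lower, against 4.34%. DESeq2 called 0 of 81 members at its adjusted threshold, against 0.687% of genes higher and 0.393% lower, and Ndufa7 alone at its unadjusted one (4.54% of all genes higher, 3.51% lower). limma-voom called 0 adjusted and 2 unadjusted, Ndufa7 and Ndufa4l2, against 6.84% of genes higher and 4.28% lower. A permutation test of 2 against 2 libraries cannot go below 0.333.

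For 12 genes both Usp28 KO libraries lay above both CTL libraries in CPM, 14.6% of those tested against 21.4% of all genes. They were Ndufa1, Ndufa3, Ndufa6, Ndufa7, Ndufb8, Ndufs5, Sdhb, Uqcr11, Uqcrq, Cox5a, Cox7a2l and Atp5d. Atp5l was the 1 gene with both Usp28 KO libraries below both CTL libraries, against 20.4% of all genes. Complete separation of the groups was thus not more frequent among the subunit genes than among genes at large, in contrast to the share of positive fold changes.

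The subunit genes moved together between libraries of the same group as well. The median deviation of a gene's log2 CPM from its own mean was 0.058 and -0.18 in the CTL libraries and 0.19 and -0.06 in the Usp28 KO libraries. The second CTL library was the lowest for 46 of 82 genes, and the first Usp28 KO library was the highest for 58. Within a group, the median gene was lower in replicate 2 than in replicate 1 by 0.26 in CTL and by 0.25 in Usp28 KO on the log2 scale, which exceeds the median group difference. Over all genes the same within-group medians were 0.020 and -0.0041.

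Without the second CTL library the median log2 fold change of the members was 0.022, with 48 genes above 0. Without the first Usp28 KO library it was -0.024, with 36 above 0. Without the first CTL library it was 0.27 and without the second Usp28 KO library 0.25, with 72 and 71 genes above 0. The median was thus positive in 3 of these 4 fits and close to 0 in 2 of them. The library medians varied between replicates with a pooled SD of 0.17, as large as the group difference. Over the scaling, filtering and correction settings with all libraries, the members' median stayed between 0.10 and 0.22, with 61 to 75 genes above 0.

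**Figure D2:**
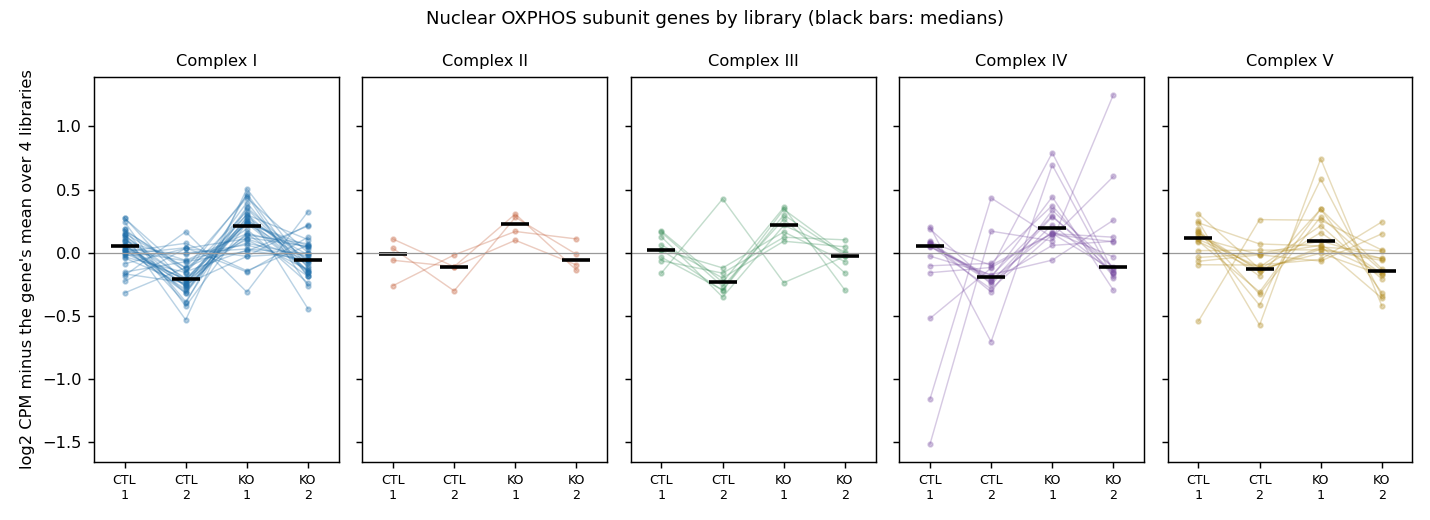
Log2 CPM of the tested genes, 1 left out, each minus its own mean over 4 libraries, by complex. Thin lines join the values of 1 gene, black bars are medians, CTL 1 and 2 are the control libraries and KO 1 and 2 the libraries labelled Usp28 KO; in complexes I to IV the bars are lowest in CTL 2 and highest in KO 1.

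The 5 complexes had medians between 0.05 and 0.23 on the log2 scale. Complex II had 4 of 4 genes above 0 (median 0.23) and complex IV 16 of 16 (median 0.21). Complex III had 8 of 9 (median 0.13), complex I 26 of 36 (median 0.15) and complex V 11 of 17 (median 0.05). The differences between complexes were not tested. The summed level in CPM was 2047, 1801, 2214 and 1952 for complex I, and 589, 535, 659 and 564 for complex II. It was 1011, 871, 1096 and 959.7 for complex III, 1724, 1449, 1926 and 1695 for complex IV, and 4666, 4247, 4677 and 4614 for complex V. In all 5 sums the second CTL library was the lowest and the first Usp28 KO library the highest, and the groups overlapped in each.

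**Figure D3:**
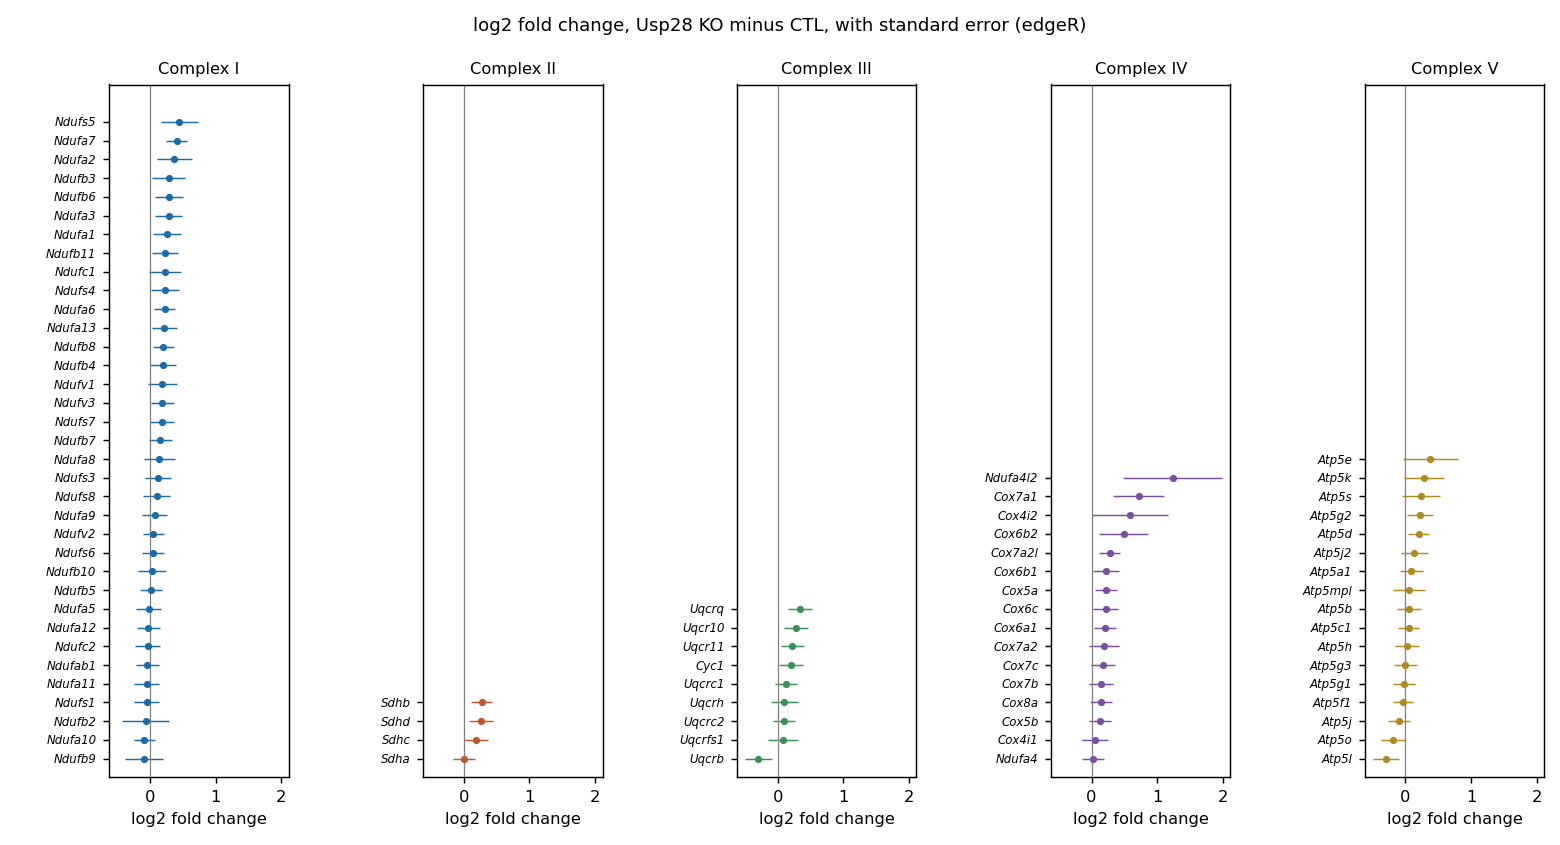
Log2 fold change of the tested genes, 1 left out, Usp28 KO minus CTL, with standard errors from edgeR, by complex. All 16 genes of complex IV and all 4 of complex II lie above 0, and Uqcrb in complex III and Atp5l in complex V have the lowest values, both -0.29.

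Complex I is the entry point for NADH. The core subunits described here, which hold flavin or iron-sulfur centres or support them, had log2 fold changes between -0.05 and 0.19. Ndufv1, which binds NADH, had 126, 84.7, 141 and 99.7 CPM, with overlapping groups and a log2 fold change of 0.19 ± 0.22. Ndufs1, the largest subunit, had 126, 103, 127 and 94.2 CPM (-0.05 ± 0.18). In both the second library of each group was the lower one. Ndufs3, Ndufs7, Ndufs8 and Ndufv2 stood at 0.13, 0.19, 0.10 and 0.05.

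Ndufa7 (chr17:33824572-33838317, mm10), an accessory subunit of complex I, was the member with the smallest p. It had 89.5 and 85.2 CPM in the CTL libraries and 124 and 108 CPM in the Usp28 KO libraries. Both Usp28 KO libraries were higher than both CTL libraries, and the gap between groups was larger than the gap within either. The log2 fold change was 0.41 ± 0.16 with an unadjusted edgeR p of 0.025 and an adjusted p of 0.362, and DESeq2 gave an adjusted p of 0.445. Without any 1 library the log2 fold change lay between 0.31 and 0.50.

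Ndufs5, another accessory subunit, had the highest log2 fold change of complex I, 0.45 ± 0.28, from 91, 85, 147 and 109 counts. An annotated pseudogene with near-identical sequence (at least 95% identity over at least 100 bases) held 605, 367, 650 and 539 counts, more than the gene itself, so its count is uncertain. Ndufab1, the acyl carrier protein that also serves mitochondrial fatty acid synthesis, had 70.1, 58.1, 67.8 and 57.6 CPM (-0.03 ± 0.18). The lowest values of the complex among genes above 5 CPM were those of Ndufb9 (-0.09 ± 0.28) and Ndufa10 (-0.08 ± 0.16). The other accessory genes lay between -0.06 and 0.38.

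The other complex I genes with separated groups are accessory subunits and were picked out after their values were seen. Ndufa6 had 88.8, 94.0, 99.5 and 114 CPM (0.23 ± 0.16), and Ndufb8 had 75.9, 66.0, 84.0 and 80.1 CPM (0.21 ± 0.16). Ndufa3 had 371, 260, 430 and 380 counts (0.29 ± 0.21), and Ndufa1, which is X-linked, had 328, 215, 366 and 317 counts (0.26 ± 0.22). The groups of Ndufa1 overlapped in counts and were narrowly apart in CPM only (16.79, 13.56, 19.58 and 16.91). In all but Ndufa6 the second CTL library was the lowest, and in these 3 the margin between the closest libraries of the groups was smaller than the gap between the CTL libraries. The edgeR adjusted p-values of these 4 genes were 0.654 to 0.704.

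Complex II links the tricarboxylic acid cycle to the chain and is wholly nuclear-encoded. Sdhb, its iron-sulfur subunit, had 85.1 and 101 CPM in CTL and 115 and 109.99 CPM in Usp28 KO. Its groups did not overlap, though the 2 CTL libraries differed by more than the gap between the groups. The log2 fold change was 0.27 ± 0.16 with an edgeR adjusted p of 0.578.

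Sdhd, a membrane anchor, had 108, 85.2, 128 and 104 CPM (0.26 ± 0.18), and the other anchor, Sdhc, had 77.7, 75.1, 100.2 and 73.7 CPM (0.19 ± 0.18). Sdha, the flavoprotein with the succinate site, had 318, 274, 316 and 276 CPM (0.0012 ± 0.17), its level following the replicate number rather than the group. All 3 had overlapping groups.

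Complex III passes electrons from ubiquinol to cytochrome c. Cyc1, which encodes cytochrome c1, had 161, 115, 171 and 148 CPM (0.21 ± 0.18). Uqcrfs1, the Rieske iron-sulfur protein, had 80.7, 60.9, 91.8 and 58.4 CPM (0.08 ± 0.22). The core proteins Uqcrc1 and Uqcrc2 stood at 0.13 ± 0.17 and 0.10 ± 0.16. Among the small subunits, Uqcrq had 67.1, 56.1, 87.2 and 68.2 CPM, with both Usp28 KO libraries above both CTL libraries by a narrow margin (0.34 ± 0.18, edgeR adjusted p 0.534), and Uqcr10 stood at 0.28 ± 0.18. Uqcrb was the only member of the complex below 0, with 71.4, 107, 67.7 and 78.2 CPM (-0.29 ± 0.20). The second CTL library was its highest and set its value, which was 0.02 without that library.

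Complex IV is the terminal oxidase, and its nuclear subunits surround a core encoded in mitochondrial DNA. Cox5a had 146, 116, 156 and 149.7 CPM (0.22 ± 0.17), with the groups apart by less than the gap between the CTL libraries. Cox5b had 148, 121, 157 and 137 CPM (0.13 ± 0.17). Cox4i1, an early-assembling subunit, had 349, 258, 357 and 274 CPM (0.06 ± 0.20), the second library of each group being the lower. Cox6a1 had 189, 171, 185 and 230.4 CPM (0.21 ± 0.17), and the second Usp28 KO library alone stood out. Cox8a had 159.5, 129.5, 158 and 161 CPM (0.14 ± 0.16), with the second CTL library low.

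Several ubiquitous subunits of complex IV were lower in the second library of each group. Cox6b1 had 89.3, 67.7, 106 and 77.6 CPM (0.22 ± 0.20), Cox7b had 124, 105, 146 and 107 CPM (0.15 ± 0.18) and Cox7a2 had 43.3, 36.4, 56.7 and 34.0 CPM (0.19 ± 0.23). Ndufa4 had 107, 94.0, 112 and 91.5 CPM and a log2 fold change of 0.02 ± 0.17, the smallest of the complex. All 4 had overlapping groups, and the gap between libraries of a group was larger than that between the group means. The median of the complex was positive under each scaling tried, and under the GC corrections Cox4i1, Cox6a1 and Cox8a stood between -0.10 and -0.02.

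The largest log2 fold changes of all members were those of complex IV isoforms that are used in particular tissues or oxygen tensions. Ndufa4l2 (chr10:127514967-127517154, mm10), a paralog of Ndufa4 known as a target of hypoxia-inducible factor, had 13.3 and 42.7 CPM in CTL and 40.4 and 90.3 CPM in Usp28 KO. The second library of each group was the higher one, and the groups overlapped. Its log2 fold change was 1.23 ± 0.75 with an edgeR adjusted p of 0.654. Without the second CTL library, which left 1 library in that group, it was 2.29. With each of the others left out in turn it lay between 0.53 and 1.70.

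Cox4i2, also known as oxygen-responsive, had 7, 18, 17 and 24 counts (0.59 ± 0.58). It shared with Ndufa4l2 a lowest value in the first CTL library and a highest in the second Usp28 KO library. Cox6b2, known from testis, had 53.5, 28.4, 74.95 and 40.4 CPM (0.49 ± 0.37, edgeR adjusted p 0.688), the first library of each group being the higher. Cox7a1, known from muscle, had 41, 44, 98 and 51 counts (0.71 ± 0.38, adjusted p 0.525), and the first Usp28 KO library was the high one. Cox7a2l, which encodes a factor that joins complexes III and IV, had 88.6 and 91.2 CPM in CTL and 109.8 and 108 CPM in Usp28 KO. Its libraries agreed closely within each group and the groups did not overlap, at 0.27 ± 0.16 (adjusted p 0.554), and between 0.25 and 0.29 without any 1 library. A pseudogene with near-identical sequence held 1191, 1382, 964 and 1661 counts, against 1731, 1446, 2052 and 2018 on Cox7a2l. The count of Cox7a2l and the separation of its groups are therefore uncertain.

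The ratio of paralogs, in RPKM of 1 to the other, described which isoform dominated. Ndufa4l2 stood at 0.156, 0.573, 0.455 and 1.24 of Ndufa4, so its share ranged widely in both groups. Cox4i2 stood at 0.0020, 0.0087, 0.0050 and 0.0092 of Cox4i1, which left Cox4i1 as the main isoform in every library. Cox6b2 stood at 0.383, 0.268, 0.452 and 0.333 of Cox6b1, and Cox7a1 at 0.0856, 0.135, 0.163 and 0.141 of Cox7a2. Of the genes for the membrane ring subunit c, Atp5g2 was near Atp5g3 (0.918, 0.837, 1.08 and 0.972) and Atp5g1 was lower (0.224, 0.218, 0.201 and 0.239). The muscle and testis isoforms Cox6a2, Cox8b and Cox8c stayed at or near 0 counts while Cox6a1 and Cox8a were among the highest genes of all.

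**Figure D4:**
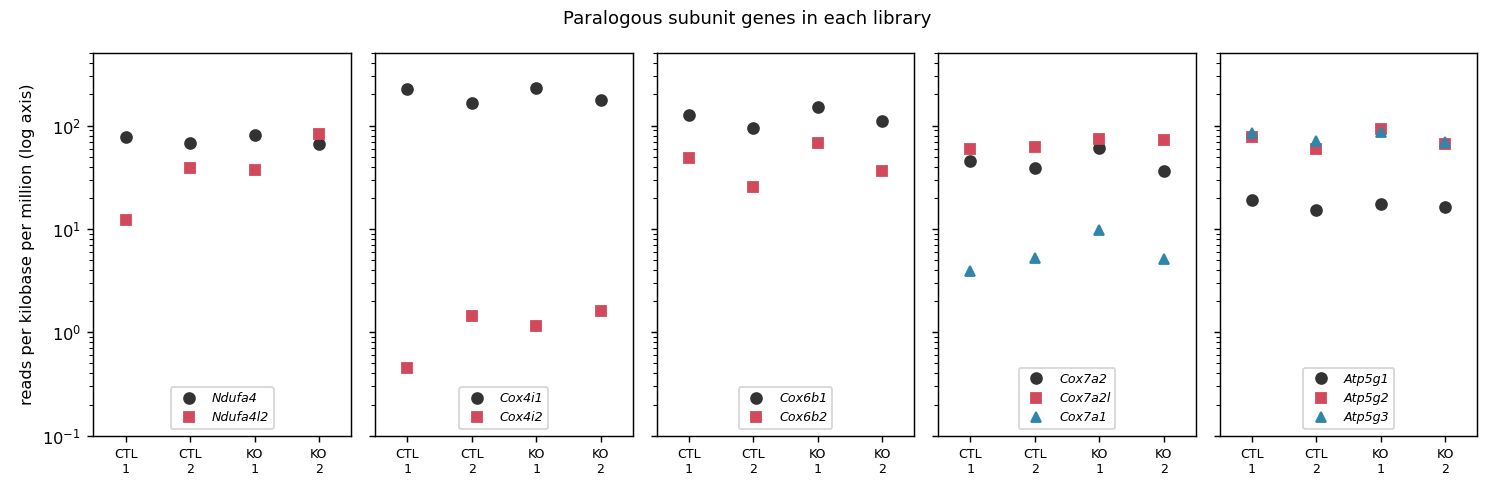
Level of paralogous subunit genes in each library, in RPKM on a log axis; CTL 1 and 2 are control libraries and KO 1 and 2 the libraries labelled Usp28 KO. Ndufa4l2 is lowest in CTL 1 and highest in KO 2, where it exceeds Ndufa4, while Cox4i1 lies far above Cox4i2 in all 4 libraries.

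Complex V makes ATP. The head genes Atp5a1 and Atp5b had 1221, 1265, 1222 and 1419.8 CPM (0.09 ± 0.18) and 1900.3, 1614, 1844 and 1806 CPM (0.05 ± 0.18). Atp5c1 stood at 0.05 ± 0.16, and Atp5d, the delta subunit, had 158, 158, 163 and 200.1 CPM (0.20 ± 0.16). The groups of Atp5d were apart by a narrow margin, and the second Usp28 KO library alone stood out. Atp5e, the epsilon subunit, had 33.8, 19.1, 47.6 and 21.2 CPM (0.38 ± 0.42) and differed more between the libraries of a group than between groups. Without the second Usp28 KO library, which left 1 library in that group, its log2 fold change was 0.84, and without the first it was -0.32.

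Atp5l, subunit g of the membrane part, was the member with both Usp28 KO libraries lower, at 48.8 and 43.4 CPM in CTL and 43.0 and 32.3 CPM in Usp28 KO (-0.29 ± 0.19, adjusted p 0.619). The margin between the closest libraries of the groups was small. In addition, 14 similar pseudogenes held 398, 251, 458 and 308 counts, so the count of Atp5l is uncertain. Atp5o, the stalk protein that confers oligomycin sensitivity, had 80.7, 59.7, 65.1 and 57.8 CPM (-0.19 ± 0.19), and 47.9% of its exon bases are shared with other annotated genes. Atp5k, subunit e, had 25.5, 16.96, 33.9 and 17.9 CPM (0.28 ± 0.30).

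The 3 genes for subunit c, whose mature proteins are identical, had overlapping groups. Atp5g3 had 185, 153, 188 and 149.7 CPM (-0.0027 ± 0.17), Atp5g2 had 130.1, 98.5, 155 and 112 CPM (0.22 ± 0.20) and Atp5g1 had 93.1, 75.3, 85.0 and 80.7 CPM (-0.02 ± 0.17). The first library of each group was the higher one for each of them. The remaining genes counted with complex V by their symbols lay between -0.10 (Atp5j) and 0.24 (Atp5s, from 105 to 175 counts). Over all members, 24 had such a similar pseudogene and 31 shared some exon bases with another gene, where the counting settings, not given in the sources used here, decide which gene receives a read.

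Shorter members had higher log2 fold changes. The median was 0.23 for the 19 genes under 1000 exon bases, 0.16 for 32 genes of 1000 to 2000 bases and 0.09 for 31 genes above 2000 bases. Across the 82 members, which are not independent and share the same 4 libraries, Spearman's rho between log2 fold change and exon length was -0.43, and it was -0.09 over all genes tested. Between exon length and the deviation of log2 CPM from a gene's own mean, rho over members was 0.12, 0.27, -0.34 and -0.0022. The length relation was thus strongest in the first Usp28 KO library and the second CTL library. For transcript GC content, rho with log2 fold change was 0.26 over members and 0.29 over all genes. With the deviations over all genes it was 0.013, -0.38, 0.045 and 0.37, strongest in the second library of each group. The members' median exon length was 1631 bases against 3925 over all genes, and their median GC content 50.2% against 49.7%. With a GC correction the members' median log2 fold change was 0.10, with a length correction 0.13 and with both 0.10.

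**Figure D5:**
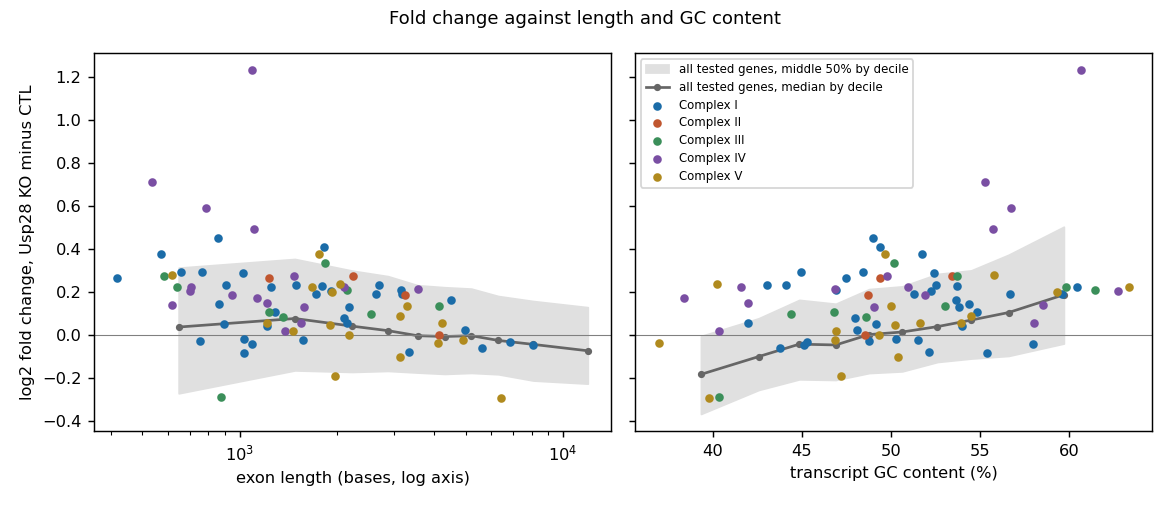
Log2 fold change of the tested members, 1 left out, against exon length (left, log axis) and transcript GC content (right), with medians and the middle 50% by decile of all genes tested in grey. Short members lie higher (median 0.23 under 1000 bases), and over all genes the median goes up with GC content.

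The mitochondrially encoded partners had values on the other side of 0. All 13 had a log2 fold change below 0, with a median of -0.84. Of these, mt-Atp8 was the 1 gene at an unadjusted edgeR p below 0.05 (0.0446, adjusted p 0.432). It had 1.33, 5.74, 1.28 and 1.44 CPM, a low level at which the second CTL library alone stood out. The summed level of the 13 genes was 27121, 58135, 18063 and 32725 CPM. This sum was highest in the second CTL library, in which the nuclear genes were lowest. It was lowest in the first Usp28 KO library, in which the nuclear genes were highest. The ratio of mitochondrial to nuclear CPM was 4.78, 13.9, 2.72 and 6.45 for complex I, 3.73, 9.10, 2.09 and 4.94 for complex III, and 7.85, 17.3, 5.06 and 9.05 for complex IV. For complex V it was 0.0057, 0.0146, 0.0030 and 0.0096, from only 26.5, 62.0, 13.9 and 44.2 mitochondrial CPM over 2 genes. In each of these complexes the ratios of the groups overlapped. In complex IV, mt-Co1 held most of the mitochondrial CPM (13481, 24871, 9704 and 15260). By contrast, mt-Co2 and mt-Co3 averaged 73.8 and 39.1 CPM in CTL, and 41.2 and 23.7 CPM in Usp28 KO. How reads that match more than 1 place were counted is not given in the sources used here. The levels of single mitochondrial genes, and differences in ratio between complexes, are therefore uncertain. With 52 dominant genes removed before scaling, mitochondrial and other abundant ones, the median log2 fold change of the nuclear members was 0.15.

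The other genes of the pathway were counted the same way, and none passed at an adjusted edgeR p below 0.05. At an unadjusted edgeR p below 0.05, the shares over all genes were 6.86% higher and 4.34% lower. Of the OXPHOS assembly factors, 47 of 49 were tested, 26 were above 0 and the median was 0.05. Nubpl, which delivers iron-sulfur clusters to complex I, and Uqcc2, a complex III assembly factor, were higher at an unadjusted p below 0.05 (log2 fold changes 0.65 and 0.64), and Tmem126b, a complex I assembly factor, was lower (-0.58). Of the 13 tricarboxylic acid cycle genes, 9 were above 0 with a median of 0.02. Suclg2, a succinyl-CoA ligase subunit, was higher at an unadjusted edgeR p below 0.05 (0.43). Nubpl had 12.8, 11.7, 24.3 and 14.1 CPM, Uqcc2 15.5, 13.1, 26.2 and 18.4 CPM, and Suclg2 59.1, 60.0, 90.9 and 69.8 CPM. In each of them the first Usp28 KO library was the highest.

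Of 12 tested regulators of OXPHOS transcription, 2 were above 0 (Esrra 0.12 and Tfb1m 0.20), the median was -0.16 and none had an unadjusted p below 0.05. Nrf1 and Gabpa, whose sites were searched above, stood at -0.16 ± 0.17 and -0.28 ± 0.18, and Yy1 at -0.29 ± 0.16. Ppargc1a, a coactivator prominent in muscle and brown fat, had no count. Of 18 import and membrane genes, 10 were above 0 with a median of 0.03 and none at an unadjusted p below 0.05. Cytochrome c itself, Cycs, stood at -0.01, and the testis isoform Cyct at 0.72 ± 0.33.

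Markers of other cell types were measured beside the members. Primitive endoderm markers summed to 12.9, 8.76, 12.2 and 12.8 CPM, and trophoblast markers to 154, 191, 152 and 188 CPM. Of the trophoblast sum, Tfap2c alone held 128, 160, 123 and 152 CPM, and Cdx2, Elf5 and Hand1 stayed at or below 0.32 CPM. Neural markers summed to 135, 99.3, 144 and 132 CPM, with 2 of 5 tested genes above 0, and mesoderm markers to 3.99, 4.48, 4.39 and 5.92 CPM. Sox7 was lower and Krt18 and Nes were higher at an unadjusted edgeR p below 0.05. Sox7 lay near the floor, at 0.768, 0.694, 0.160 and 0.373 CPM, and Krt18 had 2.35, 2.59, 4.33 and 4.21 CPM. Nes had 19.1, 21.7, 53.8 and 43.9 CPM, with a log2 fold change of 1.26 and an edgeR adjusted p of 0.054. The part of these markers in the members' values was not tested.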

How the data were processed

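Gene-level read counts for 4 libraries were used as the authors deposited them, as whole numbers that were not normalized. The submitters' processing notes name HISAT2, featureCounts, DESeq2 and the mm10 build; versions, strand setting, multi-mapping and annotation release were not given in the sources used here. All IDs of the members matched GENCODE M21 genes with the same coordinates.

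Counts were filtered (filterByExpr, minimum count 10, minimum total 15), scaled by TMM and tested with edgeR 4.0.16 (quasi-likelihood, robust, group only) in R 4.3.3 on all genes, with Benjamini-Hochberg adjustment. CPM values are counts over the TMM-scaled library size, and RPKM values divide them by the union of annotated exons. Alternatives were DESeq2 1.42.0, limma-voom (limma 3.58.1), other scalings and filters, removal of dominant transcripts, offsets that remove a spline trend (5 degrees of freedom) on GC content or length, a replicate block, and leaving out each library. Similar pseudogenes were found with blastn. The fitting steps were tested on simulated counts.

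The members, lists, motifs and tests were chosen with earlier results of these data known. Named members are, per complex, the 2 highest and 2 lowest log2 fold changes among those averaging at least 5 CPM, fixed core subunits, and fixed paralog sets. Members outside these were named after their values were seen, as extremes of level or of a range, as separated between groups, as keeping 1 direction in all settings or for their sequence. The values of 1 member are not reported here, and it stays in the counts and medians.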

Additional observations from a re-analysis of the deposited data

How the results depend on the processing

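Depth (16595196 to 19533608 counts) limits mainly the members with few counts, such as Cox4i2 at 7 to 24 and Ndufb2 at 32 to 57 counts. The median log2 fold change of the members and of each complex kept its sign and moved by less than the spread between replicates under DESeq2, limma-voom, the other scalings, both other filters, removal of the dominant transcripts and the GC and length corrections. Of the 82 tested members, 24 were above 0 and 2 (Atp5j and Atp5l) below 0 in all 18 settings. Some of them came close to 0, with a lowest value of 0.0041 for Ndufs7 and 0.0092 for Atp5d, and a highest value of -0.00028 for Atp5j. The settings refit the same libraries and are not independent. The share of all genes that kept their sign over these settings was not computed, so these counts have no background to be judged against. The cause of the changes below was not tested.

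Members at an unadjusted p below 0.05 and higher numbered 2 with limma-voom (6.84% of all genes), 3 of 86 with no filter (5.13%) and 2 with the GC correction (6.3%), against 1 in the reported fit (6.86%). Each count is a smaller share of the members than of all genes. The replicate numbers are shared between the groups, but the labels do not say that they pair libraries, and the deviations of same-numbered libraries correlated at r = 0.33 over genes. With the replicate block, 3 members were called higher by edgeR at an adjusted p below 0.05 (Ndufa4l2 at 1.33 with an adjusted p of 3.21e-15, Ndufa7 and Cox6b2) and 0 lower, against 6.29% and 4.67% of all genes, and 12 higher and 2 lower at an unadjusted p (13.0% and 10.7% of all genes). With the GC correction and the replicate block together, 14 were higher at an edgeR adjusted p below 0.05, 17.1% of the members against 8.21% of all genes. At an unadjusted p 30 were higher, 36.6% of the members against 15.4% of all genes. In this setting 0 members were lower at either threshold, against 8.64% and 15.5% of all genes.

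Single members crossed 0. Not all of them were near it in the reported fit. Under settings with a GC correction they included Cox6a1, Cox8a and Atp5g2, with reported log2 fold changes of 0.21, 0.14 and 0.22. With DESeq2 the value was Sdha -0.00409, with DESeq2 size factors Sdha -0.00408, with the dominant transcripts removed Sdha -0.00875, and with 50 counts in 2 libraries Atp5g3 0.0122. With the length correction the values were Ndufa4 -0.0256 and Sdha -0.00825. With upper-quartile scaling they were Ndufs1 0.0104, Atp5g3 0.0541, Ndufab1 0.0235 and Atp5g1 0.0328, and with library totals Ndufs1 0.0154, Atp5g3 0.0585, Ndufab1 0.0272 and Atp5g1 0.0349, where the median of all genes moved to 0.053 and 0.057. With the GC correction they were Ndufs1 0.0017, Atp5g3 0.0102, Cox6a1 -0.0214, Ndufab1 0.015, Cox4i1 -0.0842, Atp5g1 0.00924 and Cox8a -0.0198. With the GC and length correction they were Ndufs1 0.00522, Atp5g3 0.00466, Cox6a1 -0.0285, Ndufab1 0.0127, Cox4i1 -0.0972, Atp5g1 0.00206, Atp5g2 -0.00329 and Cox8a -0.0214. With the GC correction and replicate block they were Ndufs1 0.00138, Atp5g3 0.0078, Cox6a1 -0.0255, Ndufab1 0.0204, Cox4i1 -0.095, Atp5g1 0.0168, Atp5g2 -0.00749 and Cox8a -0.0183.

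Leaving out each library in turn, with the lone library of a group assumed to vary like the others, gave 0 to 2 members higher at an adjusted p (0.305% to 0.912% of all genes), 0 to 14 at an unadjusted p (4.98% to 6.03%), and 0 to 1 lower at an unadjusted p (2.48% to 6.63%). The 14 came without Usp28 KO replicate 2 and are 17.1% of the members. The calls were Cox6b2 without CTL replicate 1 (1.02), Ndufa4l2 without CTL replicate 2 (2.29), and Atp5e (0.84) and Cox6b2 (0.86) without Usp28 KO replicate 2. The median log2 fold change ranged as all tested members -0.0243 to 0.27, complex I -0.00511 to 0.28, complex II 0.0277 to 0.34, complex III 0.0171 to 0.30, complex IV 0.00337 to 0.33 and complex V -0.0977 to 0.14. The members that crossed 0 when a library was left out ranged as Cox5b -0.0173 to 0.28, Ndufs1 -0.28 to 0.15, Ndufa10 -0.19 to 0.0165, Sdhc -0.054 to 0.39, Atp5c1 -0.0258 to 0.11, Atp5g3 -0.18 to 0.15, Ndufs3 -0.0939 to 0.35, Cox4i2 -0.053 to 1.58, Atp5e -0.32 to 0.85, Atp5k -0.25 to 0.66, Ndufa4 -0.14 to 0.15, Cox6b2 -0.0229 to 1.02, Cox6b1 -0.0196 to 0.44, Uqcrc2 -0.0256 to 0.20, Ndufab1 -0.17 to 0.11, Cox4i1 -0.15 to 0.29, Cox7a2 -0.23 to 0.50, Uqcrc1 -0.00109 to 0.27, Atp5b -0.068 to 0.18, Atp5g1 -0.18 to 0.14, Uqcrfs1 -0.28 to 0.37, Uqcrb -0.56 to 0.0217, Sdha -0.11 to 0.11, Ndufb9 -0.52 to 0.24, Cyc1 -0.0198 to 0.46, Atp5g2 -0.0331 to 0.44, Atp5o -0.40 to 0.0393, Ndufv2 -0.0336 to 0.13, Atp5a1 -0.0292 to 0.19, Ndufs8 -0.11 to 0.28, Ndufv1 -0.0819 to 0.51, Cox8a -0.0109 to 0.30 and Cox7b -0.0953 to 0.35.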
